A study of Mus musculus with 6 samples.

Results

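The miRNAs described here are 6 mature arms of 4 broadly expressed miRNAs: miR-103-3p, miR-107-3p, miR-191-5p, miR-191-3p, miR-425-5p and miR-425-3p. They were chosen by name, as miRNAs that many tissues express and that are often used as references, and all 6 were among the 1906 mature miRNAs counted in each library. Small RNA was sequenced from extracellular vesicles (EVs) released by cultured mouse oligodendrocytes, the glia that wrap central axons in myelin, in 3 libraries, and from the oligodendrocytes as whole cells in 3 libraries. Cultures were 5 to 6 days old for the EVs and 6 days old for the cells. Both groups were labelled C57BL/6N, came from primary cultures of mice at embryonic day 14 and were grown with 1% horse serum. After a wash, vesicles were collected over 24 h in a medium without serum that held the supplement B27, and were pelleted at 100000 g for 2 h. Such a pellet also holds particles that are not vesicles, and no library of medium alone was analysed here, so the comparison does not show where a miRNA in the pellet came from.

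A miRNA is cut from a hairpin, and either arm (5p or 3p) can be loaded onto an Argonaute protein, which it guides to mRNAs mainly through its seed, bases 2 to 8. miR-103 and miR-107 lie in introns of the pantothenate kinase genes and are known as regulators of Dicer and of insulin sensitivity. They belong to the miR-15 and miR-107 group, whose members share a stretch of bases at their 5′ ends. miR-191 and miR-425 are neighbours that are processed from a common primary transcript, and both have been studied mainly in cancer cells. An amount of miRNA has to be set against something that stays constant, and miR-103-3p, miR-191-5p and miR-425-5p are common choices of such a reference.

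The mature sequences show which of these miRNAs counting could confuse and which it could not. They are from RefSeq, written 5′ to 3′ with the seed in capitals, and miR-16-5p of the miR-15 and miR-107 group is added for comparison.
miR-103-3p: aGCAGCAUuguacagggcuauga
miR-107-3p: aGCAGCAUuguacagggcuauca
miR-16-5p: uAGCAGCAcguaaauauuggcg
miR-191-5p: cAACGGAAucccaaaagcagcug
miR-191-3p: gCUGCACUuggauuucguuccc
miR-425-5p: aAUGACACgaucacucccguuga
miR-425-3p: aUCGGGAAugucguguccgcc

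miR-103-3p and miR-107-3p have the same seed and differ at 1 of 23 bases, G22C, where the miR-103-3p base is given first and positions count from the 5′ end. No other mature miRNA of the RefSeq table had that seed. The stretch AGCAGCA begins at base 1 of miR-103-3p and at base 2 of miR-16-5p, so the seeds of these relatives are shifted against each other. The seeds of miR-191-5p, miR-191-3p and miR-425-3p were found in no other mature miRNA of the table, and that of miR-425-5p was shared with miR-489-3p alone.

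The genes lie at 4 places in the genome. Mir103-1 is at chr11:35782396-35782481 (+) in an intron of Pank3, Mir103-2 at chr2:131288052-131288137 (+) in an intron of Pank2, and Mir107 at chr19:34820687-34820773 (-) in an intron of Pank1. Both Mir103 genes give the same miR-103-3p, so their reads cannot be separated. Mir191 at chr9:108568319-108568392 (+) and Mir425 at chr9:108568777-108568861 (+) are 384 bases apart, and both overlap an exon of the long noncoding RNA gene 4833445I07Rik. These coordinates are of GRCm38.p6, with genes from GENCODE M21, and not of the build the counts were made on. The hairpins of this pair are shown with the abundant arm in capitals, since their products are compared with each other below.
Mir191: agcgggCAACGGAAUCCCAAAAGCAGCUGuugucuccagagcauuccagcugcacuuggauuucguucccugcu
Mir425: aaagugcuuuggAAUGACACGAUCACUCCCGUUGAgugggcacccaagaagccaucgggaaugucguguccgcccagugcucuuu

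Total counts were 313766 to 689475 in the EV libraries and 126910 to 202358 in the cell libraries, so a single read weighed more in the cells. Levels are given in CPM, counts scaled to a library total of 1000000, and were not divided by length because the mature arms all measure 21 to 23 bases. All 5 oligodendrocyte markers (arms of miR-219a, miR-338 and miR-138) were detected in both groups, and their levels summed to 33557 to 36111 CPM in EV libraries against 33961 to 43435 CPM in cell libraries. These markers did not move together. For miR-219a-5p and miR-138-5p all EV libraries lay above all cell libraries, and for miR-219a-2-3p, miR-338-3p and miR-338-5p all lay below. The 5 neuronal markers were detected too, with sums of 94821 to 123589 CPM in EV libraries against 38996 to 53883 CPM in cell libraries. Most of this sum was miR-128-3p (means of 78838 CPM in EVs and 31365 CPM in cells). For miR-129-2-3p the groups overlapped, and for the others all EV libraries lay above all cell libraries. Compared with the neuronal sums, those of 5 myeloid markers were smaller, and the groups overlapped (612 to 1936 CPM in EV libraries, 1592 to 4566 CPM in cell libraries). Most of the myeloid sum was miR-146a-5p (means of 1018 CPM in EVs and 2320 CPM in cells). Smaller than the neuronal sums, too, were those of 3 miRNAs listed for astrocytes, miR-143-3p, miR-145a-5p and miR-31-5p. These were higher in all EV libraries (2336 to 4588 CPM) than in any cell library (402 to 1024 CPM). Of the 3 miRNAs, miR-143-3p and miR-145a-5p are also mural cell miRNAs, so the sum does not measure astrocyte content. Most of it was miR-143-3p (means of 2785 CPM in EVs and 569 CPM in cells), whereas miR-31-5p was lower in EVs (8.9 against 44.1 CPM).

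miR-191-5p was the most abundant of the 6 in EVs, whereas miR-103-3p was the most abundant in cells. In EVs the order was miR-191-5p, miR-103-3p, miR-425-5p, miR-107-3p, miR-425-3p and miR-191-3p. In cells miR-103-3p and miR-191-5p changed places and the rest of the order was the same. Within each group no neighbours in this order overlapped in CPM between libraries, although in cells the lowest miR-107-3p value (96.0 CPM) and the highest miR-425-3p value (93.9 CPM) nearly met.

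**Figure D1:**
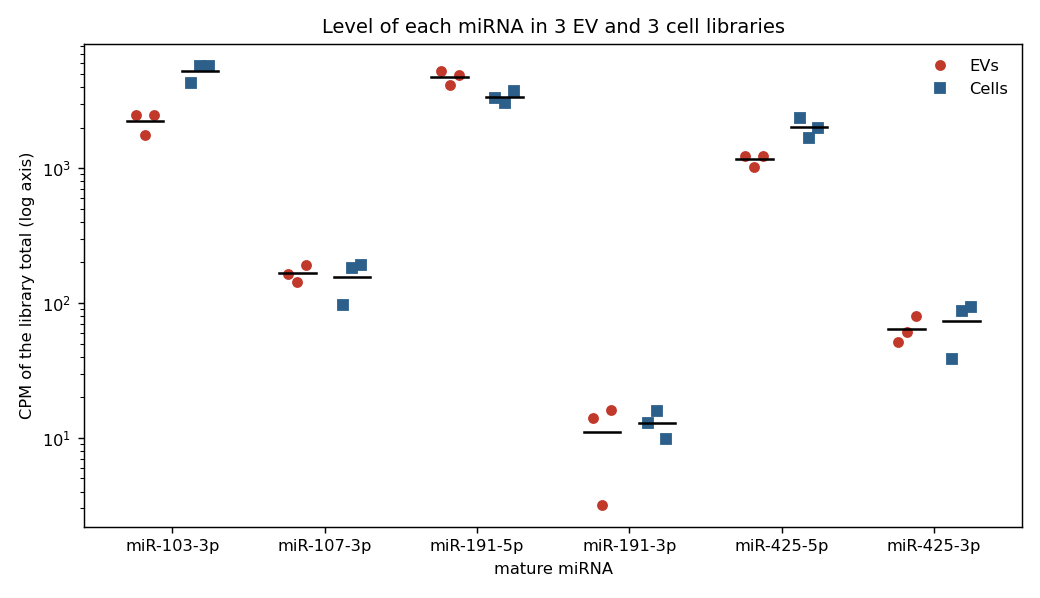
CPM (log axis) of the 6 mature miRNAs in each of 3 EV libraries (red circles) and 3 cell libraries (blue squares), with the group mean as a line. miR-103-3p and miR-425-5p lie lower in all EV libraries, miR-191-5p lies higher, and the other 3 overlap.

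miR-103-3p stood at 2489.5, 1749.7 and 2471 CPM in the EV libraries, against 4258, 5705 and 5723 CPM in the cell libraries. All EV libraries lay below all cell libraries. Its rank by abundance, which no scaling changes, was 67, 81 and 70 in EVs and 36, 33 and 35 in cells. miR-103-3p fell to a mean of 2237 ± 422 CPM in EVs, against 5228 ± 841 CPM in cells (SD, n = 3 each). With trimmed mean of M-values (TMM) scaling, which sets the bulk of miRNAs near 0, the log2 fold change was -1.69 (SE 0.19), and with library size only, as in CPM, it was -1.22 (adjusted p = 0.000974 by edgeR). With TMM the adjusted p was 0.000108 by edgeR's quasi-likelihood test with Benjamini-Hochberg (BH) adjustment over the 336 miRNAs tested. On the linear scale the TMM value is 3.22-fold lower in EVs. In bulk material of this kind, fewer cells or vesicles that carry a miRNA and less of it in each cannot be told apart.

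miR-425-5p, the abundant arm of Mir425, also fell. It stood at 1237, 1026 and 1236 CPM in EVs and at 2343, 1678 and 1992 CPM in cells, with no overlap between the groups. Its rank was 102, 102 and 98 in EVs and 58, 67 and 67 in cells. With TMM it was 2.41-fold lower in EVs, a log2 value of -1.27 (SE 0.23, adjusted p = 0.00166 in the same edgeR fit), and with library size only the log2 value was -0.78 (adjusted p = 0.00989). These 2 falls were called with TMM, RLE, upper-quartile and library-size scaling, but neither was called when the other arm was used as the scale, where miR-103-3p was at -0.50 and miR-425-5p at 0.41.

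miR-191-5p, the abundant arm of the neighbouring Mir191, did not pass the test with TMM. It stood at 5239, 4111 and 4928 CPM in EVs and at 3316, 3057 and 3711 CPM in cells, so that before this scaling all EV libraries were above all cell libraries. Its rank was nearly the same, with 43, 49 and 43 in EVs and 44, 45 and 41 in cells. With TMM its log2 fold change was 0.03 (SE 0.19, 95% interval -0.39 to 0.44, adjusted p = 0.924 by edgeR). With library size only it was 0.50 (SE 0.19, adjusted p = 0.0397) and was called higher, while the median of all tested miRNAs was 0.54, against 0.06 with TMM. The difference in CPM was therefore no larger than that of the median miRNA.

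miR-107-3p did not pass the test, although it differs from miR-103-3p by a single base. It stood at 165, 143 and 191.5 CPM in EVs and at 96.0, 181 and 193 CPM in cells, and the groups overlapped. edgeR gave a log2 fold change of -0.36, with a 95% interval of -0.95 to 0.22 (SE 0.26, adjusted p = 0.266). With library size only the value was 0.09 (adjusted p = 0.788), so its sign depended on the scaling, and leaving out each library in turn gave -0.57 (without Cells replicate 1) to -0.22 (without Cells replicate 3). The cell values rested on 15, 23 and 39 reads, and after thinning all libraries to the same total the value was -0.82 (adjusted p = 0.0698).

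The minor arms were scarce. miR-425-3p stood at 51.0, 60.6 and 79.8 CPM in EVs and at 38.4, 86.7 and 93.9 CPM in cells, and the groups overlapped. Its log2 fold change by edgeR was -0.64, with a 95% interval of -1.47 to 0.19 (SE 0.37, adjusted p = 0.162). It was -0.18 with library size only (adjusted p = 0.703) and -0.26 after thinning, and leaving out each library in turn gave -0.90 to -0.43. miR-191-3p had 6, 1 and 11 reads in EVs and 2, 2 and 2 in cells and was too low for the filter. Its share of all reads, pooled over libraries, was 1.02 times as high in EVs as in cells (95% exact binomial interval of counting error, 0.386 to 3.12), so a difference was not detectable at this depth. Of the 6 miRNAs 5 therefore passed the filter, 0 were called higher and 2 lower, against a background of 57.4% called in either direction (28.6% higher and 28.9% lower). With library size only 1 was called higher and 2 lower, against a background of 61.9% (44% higher and 17.9% lower). The groups did not overlap in CPM for 3 of the 5 that passed the filter, with EVs above for 1 and cells above for 2. The background was 67.6% of all tested miRNAs (47.3% with EVs above and 20.2% with cells above). miR-191-3p, which was not tested, overlapped. Counted in either direction, these shares are not above the background.

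**Figure D2:**
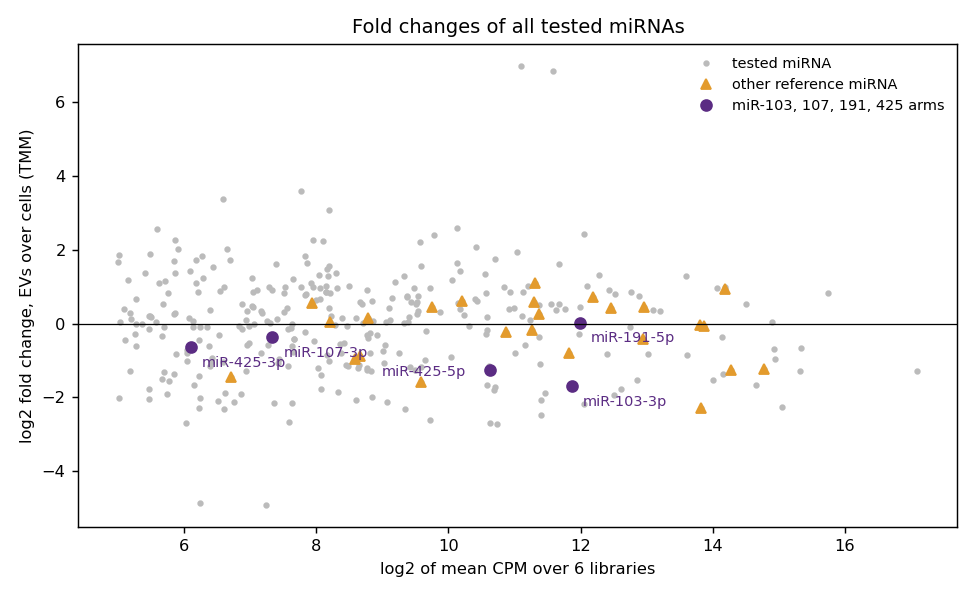
Log2 fold change of EVs over cells with TMM scaling (y axis) against the log2 of the mean CPM over all libraries (x axis) for the tested miRNAs, with the 5 tested arms in purple and 25 other miRNAs often used as references as orange triangles. miR-191-5p lies at 0.03, while miR-425-5p and miR-103-3p lie at -1.27 and -1.69, inside the range of the other references.

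Ratios within a library do not depend on how libraries are scaled, and 4 of them were compared. miR-191-5p had 4.24, 4.01 and 3.99 reads for each read of miR-425-5p in the EV libraries, against 1.42, 1.82 and 1.86 in the cell libraries. The products of these neighbouring genes thus stood in a wider ratio in all EV libraries than in any cell library. The mean log2 ratio was 2.03 ± 0.05 in EVs and 0.75 ± 0.22 in cells (SD, n = 3 each), a difference of 1.27 (exact permutation p = 0.1, two-sided, the smallest that 3 against 3 allows, BH-adjusted p = 0.133 over the 4 ratios).

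The ratio within the pair with a shared seed was narrower in EVs. miR-103-3p had 15.1, 12.2 and 12.9 reads for each read of miR-107-3p in EVs, against 44.3, 31.5 and 29.7 in cells. As a share of both, miR-107-3p made up 6.21%, 7.58% and 7.19% of reads in EVs and 2.21%, 3.08% and 3.26% in cells. The lowest EV library had a 95% exact binomial interval of 4.88% to 7.76%, and the highest cell library one of 2.33% to 4.43%, which cover counting error only. The mean share was 6.99% ± 0.71 in EVs and 2.85% ± 0.56 in cells (SD, n = 3 each), and the log2 ratio of miR-103-3p over miR-107-3p differed by -1.35, EVs minus cells (exact permutation p = 0.1, adjusted p = 0.133). With the reads of both summed, edgeR gave -1.63 on the log2 scale (SE 0.19, adjusted p = 0.000133), so the fall of the family's reads does not depend on how reads were split between the pair. The ratio and the share do depend on that split, which cannot be checked from the counts.

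miR-191-5p and miR-103-3p exchanged their order. The ratio of miR-191-5p over miR-103-3p was 2.10, 2.35 and 1.99 in EVs, against 0.779, 0.536 and 0.649 in cells, a difference of 1.73 on the log2 scale (exact permutation p = 0.1, adjusted p = 0.133). The ratio of miR-425-5p over miR-103-3p was 0.497, 0.587 and 0.50 in EVs and 0.550, 0.294 and 0.348 in cells. These overlapped, with a difference of 0.46 on the log2 scale (exact permutation p = 0.3, adjusted p = 0.3), so these 2 arms, which both fell, were not shown to differ in how far they fell.

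**Figure D3:**
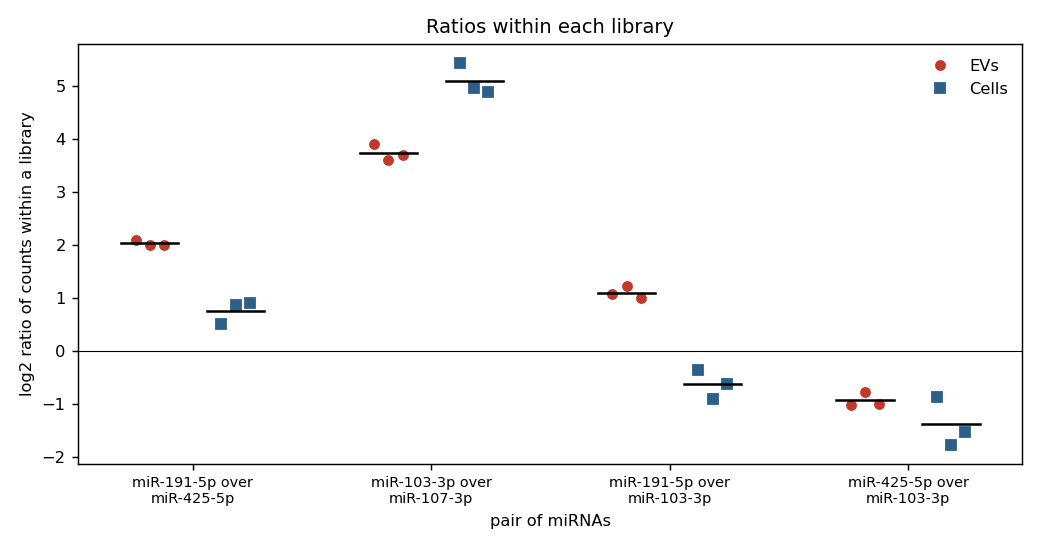
Log2 ratio of the counts of 2 miRNAs within each library (y axis) for 4 pairs, in 3 EV libraries (red circles) and 3 cell libraries (blue squares), with the group mean as a line. The groups are apart for the 3 pairs on the left and overlap for miR-425-5p over miR-103-3p.

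The choice of arm was strongly one-sided in both groups. The 3p arm held 0.265%, 0.0775% and 0.323% of miR-191 reads in EVs and 0.385%, 0.513% and 0.266% in cells. For miR-425 it held 3.96%, 5.57% and 6.06% in EVs and 1.61%, 4.91% and 4.50% in cells. The log2 ratio of the 5p over the 3p arm of miR-425 was 4.19 ± 0.34 in EVs and 4.80 ± 0.88 in cells (SD, n = 3 each), a difference of -0.62 (SE 0.53, limma BH-adjusted p = 0.401), and without Cells replicate 1 it was -0.11. Among the 90 hairpins whose minor arm averaged at least 10 counts, 44.4% were called by a version of this test added after seeing the data, and miR-425 was not (-0.66, adjusted p = 0.305).

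The passenger arms of miR-103 and miR-107 were at or near the floor of detection. miR-103-2-5p had 5, 4 and 11 reads in EVs and 0, 1 and 2 in cells, a pooled share 2.26 times as high in EVs (95% exact binomial interval 0.669 to 11.9). miR-107-5p had 1, 2 and 7 reads in EVs and 0 in all cell libraries, and miR-103-1-5p had 1, 0 and 1 reads in EVs and 0 in all cells. Where no read was seen, up to 3 reads (14.8 to 23.6 CPM in a cell library) remain possible, so none of these arms was shown to differ.

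The 3 abundant arms give different pictures of EVs against cells when each is used as the reference. Fixing an arm shifts all fold changes, by construction, by about that arm's own change. The counts with a fixed arm therefore restate the changes of these arms given above. TMM called 96 of 336 miRNAs higher and 97 lower, and library size only called 148 higher and 60 lower. With miR-191-5p set equal in all libraries, 91 of 335 were higher and 97 lower, and the median log2 fold change was 0.04, against 0.06 with TMM. With miR-425-5p as the reference, 213 were higher and 19 lower, with a median of 1.32. With miR-103-3p, 256 were higher and 5 lower, with a median of 1.76. The geometric mean of the 3 arms, a common remedy for a single reference that varies, gave 189 higher and 32 lower of 333, with a median of 1.05. RLE, the size factors of DESeq2, gave 91 and 100, and upper-quartile scaling 85 and 101.

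The values of the tested arms moved with the reference. Against miR-103-3p, miR-191-5p rose by 1.72 (SE 0.26, adjusted p = 5.14e-05), miR-107-3p by 1.33 (SE 0.30, adjusted p = 0.0011) and miR-425-3p by 1.06 (SE 0.40, adjusted p = 0.0281) in edgeR's test, against a background of 77.9% called. miR-425-5p stood at 0.41 (adjusted p = 0.202). Against miR-425-5p, miR-191-5p rose by 1.26 (SE 0.24, adjusted p = 0.00051, background 69.3%), and miR-103-3p stood at -0.50 (adjusted p = 0.127). Against miR-191-5p, miR-103-3p (-1.74) and miR-425-5p (-1.28) fell, close to their TMM values (background 56.1%). In these fits the reference's own counting error is not carried into the test. For pairs also compared as ratios above, the contrast is nearly the same, so these p-values are not separate support.

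**Figure D4:**
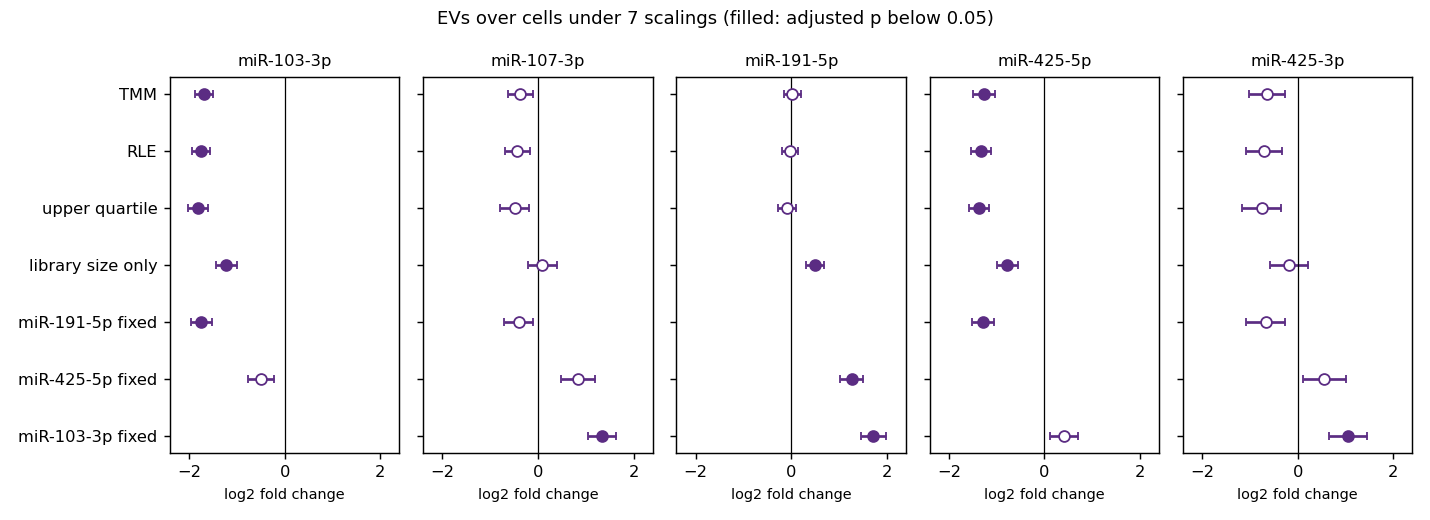
Log2 fold change of EVs over cells (x axis) with its standard error for the 5 tested arms under 7 scalings (rows), filled where the adjusted p was below 0.05; an arm has no point where it sets the scale. miR-103-3p lies between -1.81 and -0.50 and stays below 0, whereas miR-107-3p, miR-191-5p and both miR-425 arms lie on either side of 0.

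**Figure D5:**
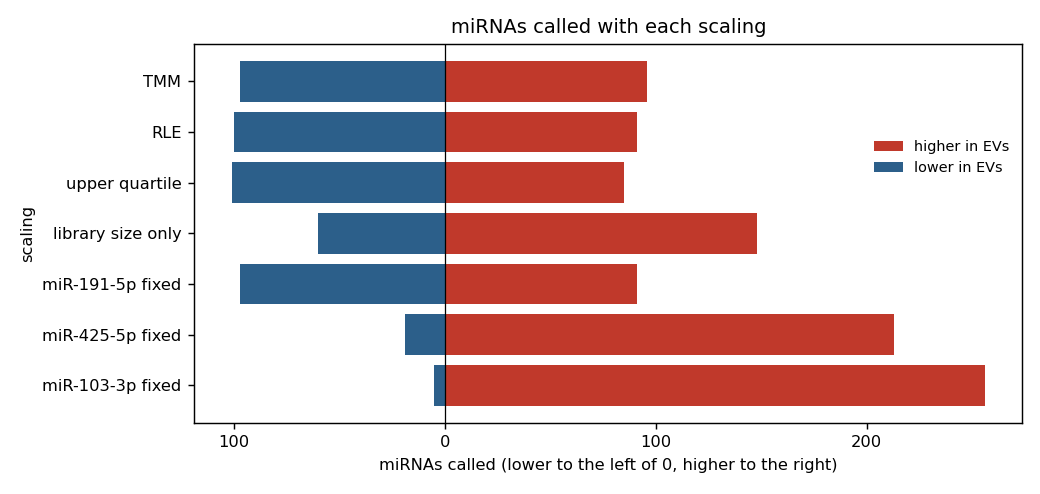
Number of miRNAs called higher in EVs (red, right of 0) and lower in EVs (blue, left of 0) under each of 7 scalings. The calls are balanced with TMM (96 and 97) and with miR-191-5p fixed (91 and 97), and lean to the right with miR-103-3p fixed (256 and 5).

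miR-191-5p varied little within groups as well. The SD of log2 CPM between libraries of a group was 0.16 for miR-191-5p, 0.20 for miR-425-5p, 0.27 for miR-103-3p, 0.38 for miR-107-3p and 0.46 for miR-425-3p, against a median of 0.32 over all tested miRNAs. Of the tested miRNAs 89.6% had a larger SD than miR-191-5p, 81.2% than miR-425-5p and 62.2% than miR-103-3p. An SD also holds counting error, which is larger for scarce miRNAs. Low spread was not particular to miR-191-5p. Among other abundant references, miR-30e-5p (0.05) and miR-92a-3p (0.09) had smaller SDs, and miR-92a-3p had a log2 fold change of -0.04 with TMM. By the size of the TMM fold change, from small to large, miR-191-5p ranked 8 of 336, miR-425-5p 235 and miR-103-3p 276. With library size only, the scale of these SDs, the ranks were 84 for miR-191-5p, 136 for miR-425-5p and 208 for miR-103-3p. With both scalings miR-191-5p had the smallest fold change of these 3 and miR-103-3p the largest.

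The miRNAs with the most similar profiles, by the root mean square difference of centred log2 CPM over the 6 libraries, were miR-98-5p (0.13), miR-92b-3p (0.17) and miR-125b-1-3p (0.21) for miR-103-3p. For miR-425-5p they were miR-744-5p (0.14), let-7c-5p (0.15) and, closest, miR-219a-2-3p (0.09), an oligodendrocyte marker that, unlike miR-219a-5p, was lower in EVs. For miR-191-5p they were miR-760-3p (0.08), miR-22-3p (0.11) and miR-340-5p (0.13). For miR-107-3p they were miR-674-5p (0.12), miR-872-3p (0.15) and miR-138-1-3p (0.15), and for miR-425-3p they were miR-331-3p (0.14), miR-325-3p (0.16) and miR-26b-5p (0.16). By the same measure the distance between miR-191-5p and miR-425-5p, of the neighbours Mir191 and Mir425, was 0.65. The pair miR-103-3p and miR-107-3p was further apart, at 0.67, than miR-103-3p and miR-425-5p, at 0.36. The nearest profiles were picked as the smallest distances among 331 candidates, so they are no yardstick for a named pair. These pairs were also compared as ratios above, which the distances largely restate, so they are not separate support.

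The other miRNAs often used as references went both ways. Of the 25 in the list, all tested, 4 rose and 8 fell, against a background of 28.6% higher and 28.9% lower. The median of the list was -0.04 on the log2 scale, against 0.06 over all tested miRNAs. Of the 4 most abundant, miR-30e-5p rose by 0.93, miR-26a-5p fell by 1.23 and let-7i-5p fell by 1.25 as log2 values (SE 0.15 to 0.16, adjusted p of 0.000207 to 0.0012 by edgeR), and let-7g-5p stood at -0.07 (adjusted p = 0.752). The largest changes were those of let-7a-5p, which fell by 2.27, and miR-151-5p, which fell by 1.58. miR-103-3p lay between these at -1.69. With TMM miR-191-5p (0.03, SE 0.19) lay closer to 0 than any of the 25, but miR-92a-3p (-0.04) and miR-195a-5p (0.05) differed from it by less than its SE. With library size only this order did not hold, with miR-191-5p at 0.50 and miR-16-5p at 0.03. Of the 25, 11 then rose and 5 fell, against a background of 44% higher and 17.9% lower. With TMM and without Cells replicate 3 the number that rose was 2.

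The relatives of miR-103 and miR-107 in the miR-15 and miR-107 group were tested in the same fit. Of the 7, 3 rose and 0 fell, against 28.6% higher and 28.9% lower over all tested miRNAs. Their median log2 value was 0.44, against 0.06 over all tested miRNAs. miR-497a-5p averaged 430 ± 93.1 CPM in EVs against 64.9 ± 8.41 CPM in cells (SD, n = 3 each) and rose by 2.25 on the log2 scale with TMM (SE 0.31, adjusted p = 0.000336 by edgeR), and miR-15a-5p rose by 0.74 (SE 0.23, adjusted p = 0.0205). miR-16-5p (-0.41), miR-15b-5p (0.44) and miR-322-5p (0.33) did not pass the test. The number that rose was 1 after thinning, with upper-quartile scaling, or when EVs replicate 1, EVs replicate 2 or Cells replicate 2 was left out. It was 5 with library size only, against a background of 44% higher, and 1 of the 7 fell without Cells replicate 1.

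Red blood cell and liver miRNAs stood beside these values in the pellet and were low in the cells. The 5 red blood cell markers, miR-451a, miR-486a-5p, miR-486b-5p and both arms of miR-144, summed to 4406 to 8549.8 CPM in EV libraries and to 292 to 333 CPM in cell libraries, where miR-144-5p had no reads. The 2 liver markers, both arms of miR-122, summed to 4197 to 8321 CPM in EV libraries and to 29.7 to 47.3 CPM in cell libraries. The 6 miRNAs described here are expressed in many cell types, and the part of such material in their levels was not tested.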

How the data were processed

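Each sample's file, as the authors deposited it, holds raw read counts per mature miRNA. The submitters' processing notes name bcl2fastq 1.8.4, cutadapt 1.7.1, Bowtie (0.12.8), Subread featureCounts (1.4.6-p4) and the mouse build NCBIM37 (mm9). How these were set, how reads with several matches were counted and whether the 4 random adapter bases removed PCR duplicates is not stated in the labels. Reads of miR-103 and miR-107 could have been exchanged or lost.

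The labels gave each library its group and replicate number. These leave unsaid if the replicates were separate cultures, so the p-values describe the spread between libraries, which may be technical. edgeR 4.0.16 in R 4.3.3 (glmQLFit, then a two-sided glmQLFTest) compared EVs with cells on the deposited counts, with TMM scaling, filterByExpr at a minimum count of 10 and a single term for group. The BH adjustment ran over 336 miRNAs, with calls below 0.05. log2 CPM used a prior count of 2 and ratios a pseudocount of 0.5. Scaling to a miRNA set the library factors so that its level was equal in all libraries. Thinning drew each library down to the smallest total. Arm ratios were tested with limma 3.58.1 over 187 hairpins. On simulated data this called unchanged hairpins with few minor-arm reads, so it is given for miR-425 only, beside a version over 90 hairpins with pseudocounts in proportion to depth that was added after seeing the data. Intervals (95%) and the floor of 3 reads cover counting error only. DESeq2 1.42.0 and limma-voom were alternatives.

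EV and cell libraries with the same number had weakly correlated deviations from their group means (0.118, 0.125 and 0.273), against -0.172 to 0.0249 for unlike numbers. The numbers may therefore pair them, which the labels do not state, and a fit with the replicate number as a block was run. The main fit and the permutation tests treated the libraries as unpaired. Libraries of a group differed by 7.73 to 37.5 times the sampling noise (chi-square over degrees of freedom), so none was a mere resampling of another's reads. This does not show if they came from separate cultures or from separate RNA.

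The miRNAs described and the lists were chosen with earlier results of these data known. Named miRNAs were the 6 arms, their passenger arms, the 3 nearest profiles of each tested arm, the 4 most abundant and the 2 most changed of each list, and cell type markers for their level. Sequences are those of RefSeq on GRCm38.p6 and were found for all 6 arms.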

Additional observations from a re-analysis of the deposited data

How the results depend on the processing

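miR-103-3p (-1.81 to -1.22) and miR-425-5p (-1.37 to -0.78) were called lower with library size only, RLE, upper-quartile scaling, no filter, the 10 CPM filter, DESeq2, limma-voom, thinning, removal of miR-9-5p and the replicate block (-1.70 and -1.24). The block changed no call among the 5 tested arms. Leaving out each library in turn gave -1.82 to -1.67 for miR-103-3p and -1.42 to -1.06 for miR-425-5p, called each time.

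The scaling moved other values. With library size only, 148 miRNAs were higher and 60 lower, miR-191-5p was called at 0.50, the reference list had a median of 0.42 with 11 higher and 5 lower, and the group of miR-15 and miR-107 had a median of 0.89 with 5 higher. With miR-103-3p fixed, 256 were higher and 5 lower, and miR-107-3p (1.33), miR-425-5p (0.41) and miR-425-3p (1.06) turned positive beside miR-191-5p (1.72); the reference list had a median of 1.67 with 20 higher and 0 lower, and the miR-15 group 2.14 with 7 higher. With miR-425-5p fixed, 213 were higher and 19 lower, miR-191-5p was at 1.26, and miR-103-3p (-0.50) and its sum with miR-107-3p (-0.44) were no longer called; the reference list had a median of 1.17 with 16 higher and 1 lower, and the miR-15 group 1.61 with 6 higher. With the geometric mean fixed, 189 were higher and 32 lower, the reference list had a median of 0.93 with 16 higher and 2 lower, and the miR-15 group 1.38 with 6 higher. With a fixed miRNA the shift equals, by construction, about the fall of that miRNA with TMM.

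In the miR-15 group 1 was higher with upper-quartile scaling and after thinning. Leaving out a library gave 1 to 3 higher and 0 to 1 lower in that group, 2 to 5 higher and 6 to 8 lower in the reference list, and 160 to 199 called in all (66 to 101 higher, 88 to 98 lower). It gave ratios of 1.15 to 1.34 for miR-191-5p over miR-425-5p, -1.46 to -1.18 for miR-103-3p over miR-107-3p, 1.59 to 1.86 for miR-191-5p over miR-103-3p and 0.27 to 0.72 for miR-425-5p over miR-103-3p. Depth limits the scarce arms most: thinning moved mean CPM to 123 for miR-107-3p and 89.3 for miR-425-3p in EVs and to 15.8 for miR-191-3p in cells. A single read in a cell library is worth 4.94 to 7.88 CPM.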
